A study of Mus musculus with 4 samples.

Results

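Messenger RNA of 9 leukocyte integrin chains was followed in PMN-MDSCs (polymorphonuclear myeloid-derived suppressor cells), cells of neutrophil type that suppress T cells in animals with tumours. The chains were chosen by gene name. They are the β2 family chains Itgam, Itgal, Itgax and Itgb2, the chains of the α4 integrins Itga4, Itgb1 and Itgb7, and the laminin and vitronectin receptor chains Itga6 and Itgav. All 9 had a row among the 18751 distinct gene names of the count table, and 8 passed the filter on low counts. There were 2 libraries from CD300ld knockout (KO) mice and 2 from wild-type (WT) mice. CD300ld is a receptor of myeloid cells. Both genotypes were labelled C57BL/6 and 8 weeks of age, and all mice carried subcutaneous tumours of B16-F10, a transplantable mouse melanoma line. Cells were collected at day 15 of tumour growth and enriched with a magnetic neutrophil kit. The labels name neither the organ nor the part of the Cd300ld gene that was removed, and nothing says that the libraries came from separate mice, so p-values reflect only how far these libraries vary, and that variation may be technical.

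An integrin is a receptor made of an α and a β chain that are assembled in the cell before they reach the surface, so an α chain without its β chain is not displayed. In leukocytes the β2 chain pairs with αM, αL, αX or αD, and these receptors carry firm adhesion to the vessel wall, phagocytosis of complement-coated particles and contact with other cells. The α4 chain pairs with β1 to bind VCAM-1 and with β7 to bind MAdCAM-1 in the gut, and is prominent on lymphocytes, monocytes and immature blood cells. Talin and kindlin bind the β chain's tail and switch the receptor on from inside the cell.

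Library totals were 830931 and 835510 counts for KO, against 674599 and 920839 counts for WT. For Cd300ld itself the counts were 2 and 3 in KO and 0 and 11 in WT, too few to check the genotype labels. Sampling noise alone did not account for the spread within a genotype: the mean chi-square per gene was 2.58 between the KO libraries and 2.99 between the WT libraries. The preparations were mixed. Ly6g, the defining surface marker of mouse neutrophils, had counts of 8 and 8 in KO, against 49 and 90 in WT. Ighm, of B cells, had counts of 3270 and 4023 in KO, and of 2037 and 3427 in WT. The raw Ighm counts overlapped between the genotypes, but the Ighm levels after scaling to library size, given further below, did not. Ighm did not pass the test used below. Erythroid markers took 19.7% to 20.9% of counts in KO and 15.3% to 16.4% in WT. The sum of 15 genes of neutrophil secondary and tertiary granules was 2852 and 2843 CPM (each library's counts put on a common library size after TMM scaling) in KO, against 17808 and 19413 CPM in WT, with 12 lower and 0 higher in KO among the 15 tested and none of them at 0. In bulk RNA, fewer cells of a type and less RNA per cell cannot be told apart.

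In KO libraries Itgam and Itgb2, the chains of the receptor Mac-1, were lower, and none of the other tested chains passed (quasi-likelihood test in edgeR, adjusted p under 0.05). Of the 9 chains, 2 were lower, 0 were higher, 6 were tested without passing and 1 had too few counts to test. Of chains above WT, 2 had an unadjusted p under 0.05 (Itga4 and Itgb7), and 0 passed with DESeq2 or limma-voom. Over all 7685 genes tested, 5.97% passed, with 3.27% lower and 2.71% higher in KO. The chains had a median log2 fold change of −0.11 over the 8 tested, against 0.00294 over all tested genes. CPM of the 2 genotypes did not overlap for 5 of the 8 tested chains, of which 2 were lower and 3 higher in KO, and the same held for 48.1% of all tested genes.

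**Figure D1:**
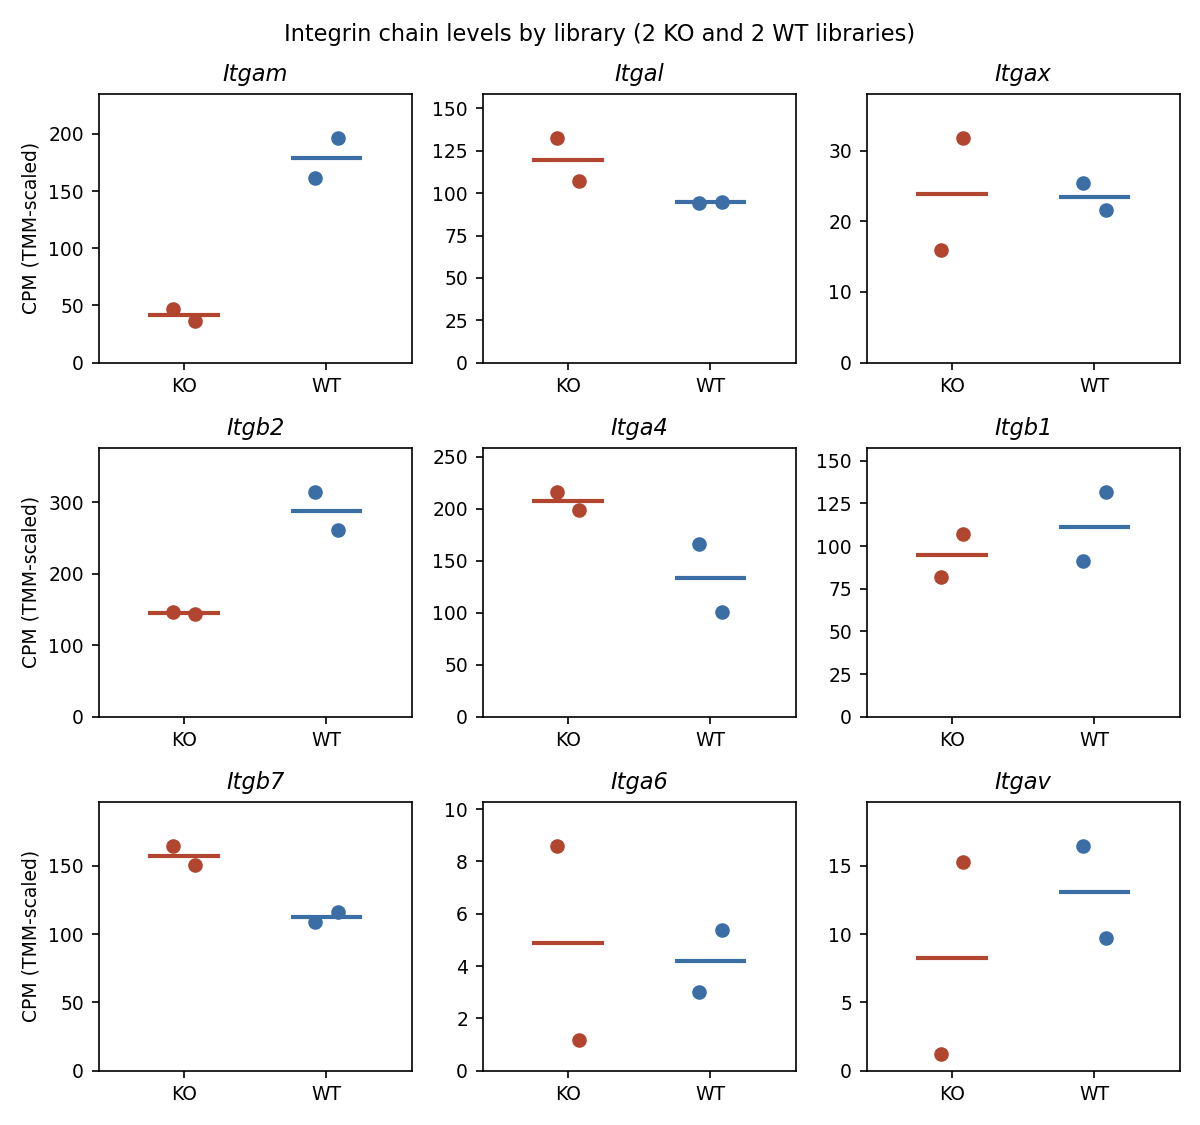
Level of each of the 9 integrin chains in the 2 KO libraries (red, left) and the 2 WT libraries (blue, right), in TMM-scaled CPM on a linear axis that starts at 0 in each panel. Points are libraries and bars are means of 2. The genotypes are far apart for Itgam (36.4 to 46.6 CPM in KO, 161 to 196 CPM in WT) and Itgb2, and overlap for Itgax, Itgb1, Itga6 and Itgav.

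Itgam encodes αM, also called CD11b, the α chain of Mac-1 and the surface marker by which mouse myeloid cells are commonly gated. It had 38 and 31 counts in the KO libraries, against 108 and 182 counts in the WT libraries. On the scaled level these were 46.6 and 36.4 CPM in KO and 161 and 196 CPM in WT, so both KO libraries lay far below both WT libraries. The mean was 41.5 ± 7.16 CPM in KO and 179 ± 24.6 CPM in WT (SD, n = 2 each). Itgam fell by 2.11 ± 0.25 on the log2 scale (SE), with an adjusted p of 4.73e-05 in edgeR. This is a 4.32-fold lower level, with a 95% interval of the KO to WT ratio from 0.161 to 0.333. When each library was left out in turn, the log2 fold change ran from −2.31 to −1.94.

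The Itgam promoter is shown because Itgam had the largest change among the 8 tested chains, beside that of Itgax, which lies downstream of it on chromosome 7 and did not pass the test, and those of Itga4 and Itgb7, whose KO levels were above WT without passing it. RefSeq promoter entries were found for 6 of the 9 chains, and not for Itgal, Itgb2 and Itga6. Each line gives the 250 bases before the transcription start in GRCm38.p6, 5′ to 3′ on the gene's own strand. Capitals mark GAGGAA, the core recognised by the myeloid factor PU.1, and GGGCGG, the GC box of Sp1-type factors, each on either strand, so that they also appear as TTCCTC and CCGCCC.
Itgam, chr7:128062390-128062639, plus strand: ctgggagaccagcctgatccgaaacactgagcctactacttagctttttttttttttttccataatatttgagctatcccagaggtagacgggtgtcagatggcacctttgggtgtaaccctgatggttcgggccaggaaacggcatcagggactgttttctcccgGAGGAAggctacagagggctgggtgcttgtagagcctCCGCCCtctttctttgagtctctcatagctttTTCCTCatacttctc
Itgax, chr7:128129300-128129549, plus strand: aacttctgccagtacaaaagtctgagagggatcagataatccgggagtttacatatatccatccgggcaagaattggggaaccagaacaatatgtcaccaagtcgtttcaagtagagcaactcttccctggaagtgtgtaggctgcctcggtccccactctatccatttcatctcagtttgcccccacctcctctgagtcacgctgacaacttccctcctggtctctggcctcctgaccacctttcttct
Itga4, chr2:79255176-79255425, plus strand: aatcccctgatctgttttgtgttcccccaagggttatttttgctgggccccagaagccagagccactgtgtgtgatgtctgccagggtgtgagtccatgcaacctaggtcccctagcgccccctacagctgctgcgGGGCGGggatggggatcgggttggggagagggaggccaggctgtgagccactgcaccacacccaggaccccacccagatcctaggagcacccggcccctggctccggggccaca
Itgb7, chr15:102231936-102232185, minus strand: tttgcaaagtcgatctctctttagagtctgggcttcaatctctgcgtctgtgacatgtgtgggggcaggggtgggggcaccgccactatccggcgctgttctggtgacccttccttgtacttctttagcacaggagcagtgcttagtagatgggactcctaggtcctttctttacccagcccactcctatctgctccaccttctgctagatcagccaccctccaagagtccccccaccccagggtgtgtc
Itgam held 2 matches to GAGGAA, which begin 84 and 15 bases before the start, and 1 match to GGGCGG, which begins 47 bases before it. These matches did not overlap each other. Of 32851 promoter windows of the same length, 23.3% held GAGGAA, 3.54% held at least 2 matches to it, and 32.7% held GGGCGG. Itga4 held 1 match to GGGCGG, and the Itgax and Itgb7 windows held neither set of letters. Itgav, not printed, held 2 matches to GAGGAA and Itgb1 held 1. A match is only a run of letters and not a measured site.

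Itgb2 encodes β2 (CD18), the shared β chain of the family, without which none of its α chains reaches the surface. There were 119 and 122 counts in KO libraries, against 210 and 242 in WT libraries. The levels were 146 and 143 CPM in the KO libraries and 314 and 261 CPM in the WT libraries. The KO libraries stood close together, below both WT libraries. On the log2 scale Itgb2 fell by 0.99 ± 0.18 (SE), with an adjusted p of 0.00279 in edgeR, a 1.98-fold lower level with a 95% interval of the KO to WT ratio from 0.387 to 0.660. Its log2 fold change ran from −1.12 to −0.87 when each library was left out in turn.

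Itgal encodes αL (CD11a), the α chain of LFA-1, which binds ICAM-1 and is carried by nearly all leukocytes, lymphocytes above all. Its counts were 108 and 91 in KO, against 63 and 88 in WT. The levels were 132 and 107 CPM in the KO libraries and 94.1 and 94.8 CPM in the WT libraries, so both KO libraries were above both WT libraries, and KO library 2 exceeded them by less than the KO libraries differed from each other. The log2 fold change was 0.34 ± 0.23 (SE, adjusted p = 0.473 in edgeR), with a 95% interval from −0.14 to 0.82. Itgax encodes αX (CD11c), the marker chain of dendritic cells and some macrophages. There were 13 and 27 counts in KO libraries, against 17 and 20 in WT libraries, and both WT libraries lay between the KO libraries. Its log2 fold change of 0.03 ± 0.48 (adjusted p = 0.984 in edgeR) has a 95% interval from −0.99 to 1.06, which as a KO to WT ratio spans 0.503 to 2.08.

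**Figure D2:**
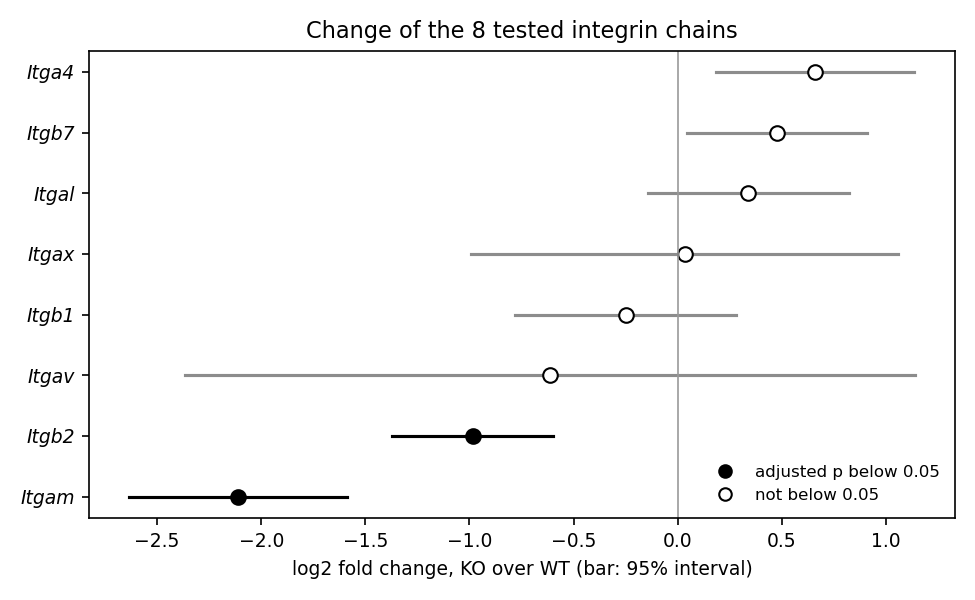
Fitted log2 fold change of KO over WT for the 8 tested integrin chains, sorted, with bars for the 95% interval. Filled points passed an adjusted p of 0.05. Itgam at −2.11 and Itgb2 at −0.99 are the filled points, the intervals of Itga4 and Itgb7 lie above 0 before adjustment, and those of Itgal, Itgax, Itgb1 and Itgav cross 0.

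The mix of β2 family α chains was also compared as shares within each library, where no scaling between libraries enters. Itgam made up 23.9% of the counts of Itgam, Itgal and Itgax in KO library 1 (95% Clopper-Pearson interval 17.5% to 31.3%) and 20.8% in KO library 2 (14.6% to 28.2%). It made up 57.4% in WT library 1 (50.0% to 64.6%) and 62.8% in WT library 2 (56.9% to 68.3%). The intervals of KO and WT libraries did not overlap, and cover counting error only. The Itgal share was 67.9% and 61.1% in KO, against 33.5% and 30.3% in WT. The Itgax share was 8.18% and 18.1% in KO, against 9.04% and 6.90% in WT. The shares of a library make up a whole, so a lower Itgam share entails a higher share for Itgal and Itgax together. The mean Itgam share in KO was 22.4 ± 2.19% and in WT 60.1 ± 3.76% (SD, n = 2 each), a difference of −37.8 percentage points. An exact two-sided permutation test over the 4 libraries gave p = 0.333, the smallest value that this design allows, so it can pass no threshold of 0.05. The log2 fold changes of Itgam and Itgal were not tested against each other in the fit.

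Ratios of α to β chain counts were compared for 7 pairs known to form receptors. A ratio may depend on the lengths of both transcripts, so only its difference between libraries is read. The Itgam to Itgb2 ratio was 0.319 and 0.254 in KO, against 0.514 and 0.752 in WT, with both KO libraries lower. The Itgal to Itgb2 ratio was 0.908 and 0.746 in KO, against 0.300 and 0.364 in WT, with both KO libraries higher. The Itgax to Itgb2 ratio was 0.109 and 0.221 in KO, against 0.0810 and 0.0826 in WT. Itgb2, the denominator of these 3 ratios, itself passed the test as lower in KO, while Itgal and Itgax did not pass. Each of these 3 ratios had an exact two-sided permutation p of 0.333, and 0.583 after adjustment over the 7 ratios. The summed level of Itgam, Itgal and Itgax was 195 and 175 CPM in KO, against 281 and 313 CPM in WT.

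**Figure D3:**
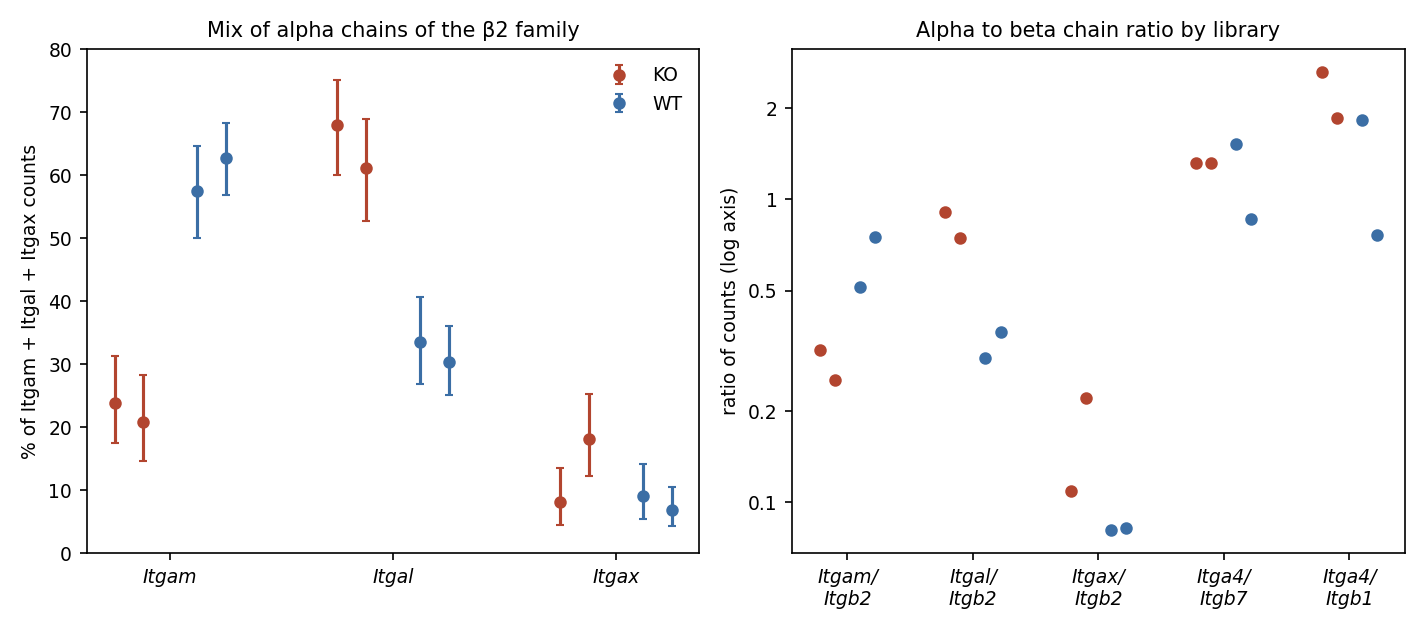
Left, percentage of the counts of Itgam, Itgal and Itgax that each gene took in the 2 KO (red) and 2 WT (blue) libraries, with exact 95% intervals for counting error. Right, ratio of α chain to β chain counts per library on a log axis. Itgam took 20.8% to 23.9% of these counts in KO and 57.4% to 62.8% in WT. For Itgal the order is turned round, and the shares of a library are not independent.

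Itga4 encodes α4 (CD49d), the chain of VLA-4 and of the gut-homing α4β7 receptor. Its counts were 176 and 169 in KO, and 111 and 93 in WT. The levels were 216 and 199 CPM in the KO libraries and 166 and 100 CPM in the WT libraries. Both KO libraries were higher, while the WT libraries were far apart. The log2 fold change was 0.66 ± 0.22 (SE), with an adjusted p of 0.102 in edgeR, and did not pass. It was 1.03 (adjusted p = 0.00325) without WT library 1 and 0.31 (adjusted p = 0.619) without WT library 2, and the first of these was the only one of 11 alternatives in which Itga4 passed.

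Itgb7 encodes β7, the partner of α4 in gut-homing lymphocytes. There were 134 and 128 counts in KO libraries, against 73 and 108 in WT libraries. The levels were 164 and 150 CPM in the KO libraries and 109 and 116 CPM in the WT libraries, and the genotypes did not overlap. The log2 fold change was 0.48 ± 0.20 (SE, adjusted p = 0.211 in edgeR), with a 95% interval from 0.04 to 0.91 before adjustment. Itgb1 encodes β1, the β chain of VLA-4 and of most receptors for matrix. Its counts were 67 and 91 in KO, and 61 and 122 in WT. The levels were 82.1 and 107 CPM in the KO libraries and 91.2 and 131 CPM in the WT libraries, which overlap. Its log2 fold change was −0.25 ± 0.25 (adjusted p = 0.667 in edgeR), and 0.05 without WT library 2.

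The Itga4 to Itgb7 ratio was 1.31 and 1.32 in KO and 1.52 and 0.861 in WT, with the KO libraries between the WT libraries (exact permutation p = 1). The Itga4 to Itgb1 ratio was 2.63 and 1.86 in KO, against 1.82 and 0.762 in WT, where KO library 2 and WT library 1 lay side by side. The summed level of Itga4, Itgb1 and Itgb7 was 462 and 456 CPM in KO, against 366 and 348 CPM in WT. All 9 chains together had 812 and 791 CPM in KO, against 980 and 937 CPM in WT. Without Itgam the other 8 chains had 766 and 754 CPM in KO, against 819 and 740 CPM in WT, where the KO libraries lay between the WT libraries. That sum holds Itgb2, which was lower in KO, together with Itga4 and Itgb7, whose KO levels were above WT without passing.

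Itgav encodes αv, which binds vitronectin and other RGD proteins. There were 1 and 13 counts in KO libraries, against 11 and 9 in WT libraries, and KO library 1 alone was low. The log2 fold change was −0.61 ± 0.83 (adjusted p = 0.773 in edgeR), and it was 0.24 without KO library 1. Itga6 encodes α6, a laminin receptor chain. Its counts were 7 and 1 in KO, and 2 and 5 in WT, and it was not tested. The ratio of its summed counts, KO to WT, was 1.09 with an exact 95% Poisson interval from 0.347 to 3.55 that covers counting error only. The Itga6 to Itgb1 and Itgav to Itgb1 ratios overlapped between the genotypes.

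Set per kilobase of the longest coding transcript in GENCODE M21, Itgb2 and Itgb7 had the highest mean levels in KO and in WT. In KO the order of mean levels was Itgb7 (58.6 CPM per kb), Itgb2 (48.7), Itgb1 (24.8), Itgal (22.9), Itga4 (21.2), Itgam (8.86), Itgax (5.89), Itgav (1.17) and Itga6 (1.13). Libraries of neighbours in that order overlapped for Itgb1 and Itgal, for Itgal and Itga4, for Itgam and Itgax, and for Itgav and Itga6. In WT the order was Itgb2 (96.7 CPM per kb), Itgb7 (42.0), Itgam (38.2), Itgb1 (29.2), Itgal (18.1), Itga4 (13.6), Itgax (5.80), Itgav (1.85) and Itga6 (0.972), and the only neighbours whose libraries overlapped were Itgb7 and Itgam. Itgam thus held rank 6 in KO and rank 3 in WT, and Itgb7 was above Itgb2 in KO alone. In these libraries counts did not rise with transcript length, since the median was 38.8 counts a gene in the shortest of 4 equal groups of tested genes by coding transcript length and 27.0 in the longest. A level per kilobase may thus understate a long transcript such as that of Itga4, with 9767 bases. The leading pair depends on this scale: without division by length Itga4 had the highest mean in KO (207 CPM), above Itgb7 (157 CPM) and Itgb2 (145 CPM), and Itgb2 (287 CPM) and Itgam (179 CPM) had the highest in WT.

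Markers of other cell types also differed between these libraries, and their part in the integrin values was not tested. Over all tested genes, for comparison, 3.27% were lower and 2.71% higher in KO. For cells that carry Mac-1, the granule genes given above were lower in KO. Of 6 tested genes of neutrophil primary granules 6 were lower and 0 higher, with sums of 1101 and 709 CPM in KO, against 3448 and 6089 CPM in WT. Of 11 tested macrophage markers 4 were lower and 0 higher, with summed levels of 486 and 591 CPM in KO, against 1069 and 1017 CPM in WT. Of 10 tested monocyte markers 3 were lower and 1 was higher, with sums of 925 and 937 CPM in KO, against 1249 and 1576 CPM in WT. In the mature neutrophil list 1 of 12 tested genes was lower and 1 higher, with sums of 728 and 679 CPM in KO, against 737 and 718 CPM in WT. For cells that carry αL, α4 and β7, the B cell list summed to 5777 and 6374 CPM in KO, against 4425 and 5176 CPM in WT. Most of this sum was Ighm, with 4006 and 4727 CPM in KO, against 3044 and 3693 CPM in WT. Ighm did not pass (adjusted p = 0.0742 in edgeR). Of 12 tested B cell genes 1, Cr2, was lower and 0 were higher. The median log2 fold change was 0.38, with 9 values positive and 3 negative. The T and NK cell list summed to 494 and 511 CPM in KO, against 401 and 453 CPM in WT, with 1 of 13 tested lower, 0 higher and a median of 0.44. Immature blood cells also carry α4, and the erythroid list summed to 212940 and 193800 CPM in KO, against 154438 and 162557 CPM in WT. Of its 15 tested genes 10 were higher and 0 lower, with a median log2 fold change of 0.47. No gene name in the whole table was at 0 counts in all 4 libraries, so no marker with a row could be. The monocyte gene Ace was at 0 in both WT libraries, with 14 and 17 counts in KO. The mature neutrophil gene Cxcr1 was also at 0 in both WT libraries, with 1 and 0 counts in KO.

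Other integrin chains were scarce. Of 15 with a row 4 could be tested, and in the fit of all 4 libraries 0 passed in either direction, nor did any at an unadjusted p under 0.05 (0 of 4 in edgeR) or with DESeq2 or limma-voom (0 of 4 each). The median log2 fold change was −0.09. Itgad, the αD chain of the β2 family, had counts of 13 and 20 in KO, against 8 and 55 in WT, where WT library 2 alone was high. Its log2 fold change was −0.90 ± 0.57 (adjusted p = 0.439 in edgeR), and −1.60 (adjusted p = 0.0185) without WT library 1, the only one of 11 alternatives in which it passed. Without WT library 2 its direction turned, to a log2 fold change of 0.71 (adjusted p = 0.769). Itga2b, the platelet α chain, had counts of 10 and 27 in KO, and of 11 and 26 in WT (log2 fold change −0.04 ± 0.53, adjusted p = 0.984 in edgeR). Itga5, the α chain of the fibronectin receptor, had counts of 29 and 13 in KO, and of 6 and 18 in WT, and the genotypes overlapped (adjusted p = 0.514 in edgeR). Itgb2l, a β2-like chain counted with the granule genes, had counts of 7 and 13 in KO, and of 9 and 17 in WT (adjusted p = 0.788 in edgeR). Itga5 and Itgb2l were named after their values were seen.

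Of the genes that act from inside the cell on the switching of integrins, 22 were tested, 3 were lower and 0 higher in KO, and the median log2 fold change was −0.27. The count and median mix activators with negative regulators, which include Flna, Itgb1bp1, Sharpin and Sipa1. Flna, encoding filamin A, which binds β chain tails and competes with talin, had 114 and 145 CPM in KO, against 245 and 287 CPM in WT. It fell by 1.04 ± 0.19 on the log2 scale (adjusted p = 0.00282 in edgeR). Skap2, an adaptor in β2 integrin activation, fell by 0.90 ± 0.25 (adjusted p = 0.0412) and Fermt3, which encodes the kindlin of blood cells, fell by 0.64 ± 0.18 (adjusted p = 0.0491), by the same test. Both lay just inside the threshold. The Skap2 call was lost whichever library was left out, with adjusted p from 0.0508 to 0.156, and the Fermt3 call was lost without either KO library or WT library 2, with adjusted p from 0.0880 to 0.242. Both calls were also lost with DESeq2 (adjusted p = 0.213 for Skap2 and 0.185 for Fermt3) and with a filter of 1 CPM in 2 libraries (0.0583 for Skap2 and 0.0726 for Fermt3), and that of Fermt3 without TMM scaling (0.0515 in edgeR). Flna passed in all 11 alternatives. Tln1, encoding talin, had 554 and 486 CPM in KO, against 653 and 718 CPM in WT (log2 fold change −0.40 ± 0.14, adjusted p = 0.114 in edgeR); it was named after its values were seen.

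Of the genes of signalling from bound integrins and of their linkers to actin, 22 of those reported here were tested, 1 was lower and 0 higher, and the median log2 fold change was −0.30. The count lower was 2 without KO library 1, without WT library 1 or without WT library 2. The lower gene, Fcer1g, encodes an adaptor that Src kinases phosphorylate downstream of β2 integrins, and it fell by 1.09 ± 0.21 on the log2 scale (adjusted p = 0.00418 in edgeR). Among 6 tested ligands 2 were lower and 0 higher, with a median of −0.09. C3, whose fragment iC3b is the ligand of Mac-1 on coated particles, had 31.9 and 62.3 CPM in KO, against 242 and 184 CPM in WT, and fell by 2.16 ± 0.28 on the log2 scale (adjusted p = 1.21e-04 in edgeR). Vcam1, the ligand of VLA-4 and also a marker of splenic and marrow macrophages, fell by 1.21 ± 0.22 (adjusted p = 0.00231 in edgeR).

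Selectins, their ligands and other adhesion receptors had 1 member lower and 0 higher of 18 tested, and the median log2 fold change was −0.08. Without WT library 1 the count lower was 2, with Sirpa, an inhibitory receptor of myeloid cells, added (log2 fold change −1.15, adjusted p = 0.0209 in edgeR). In the fit of all 4 libraries the lower gene was Cd9, a tetraspanin that associates with integrins, with 33.1 and 38.8 CPM in KO, against 95.6 and 113 CPM in WT, and it fell by 1.54 ± 0.28 on the log2 scale (adjusted p = 0.00238 in edgeR). Of the genes above WT in these 5 lists, 1 of the activation list and 3 of the adhesion list had an unadjusted p under 0.05 in edgeR, and 0 passed with DESeq2 or limma-voom. Beside these lists, 3.27% of all tested genes were lower and 2.71% higher, and the median over all tested genes was 0.00294.

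**Figure D4:**
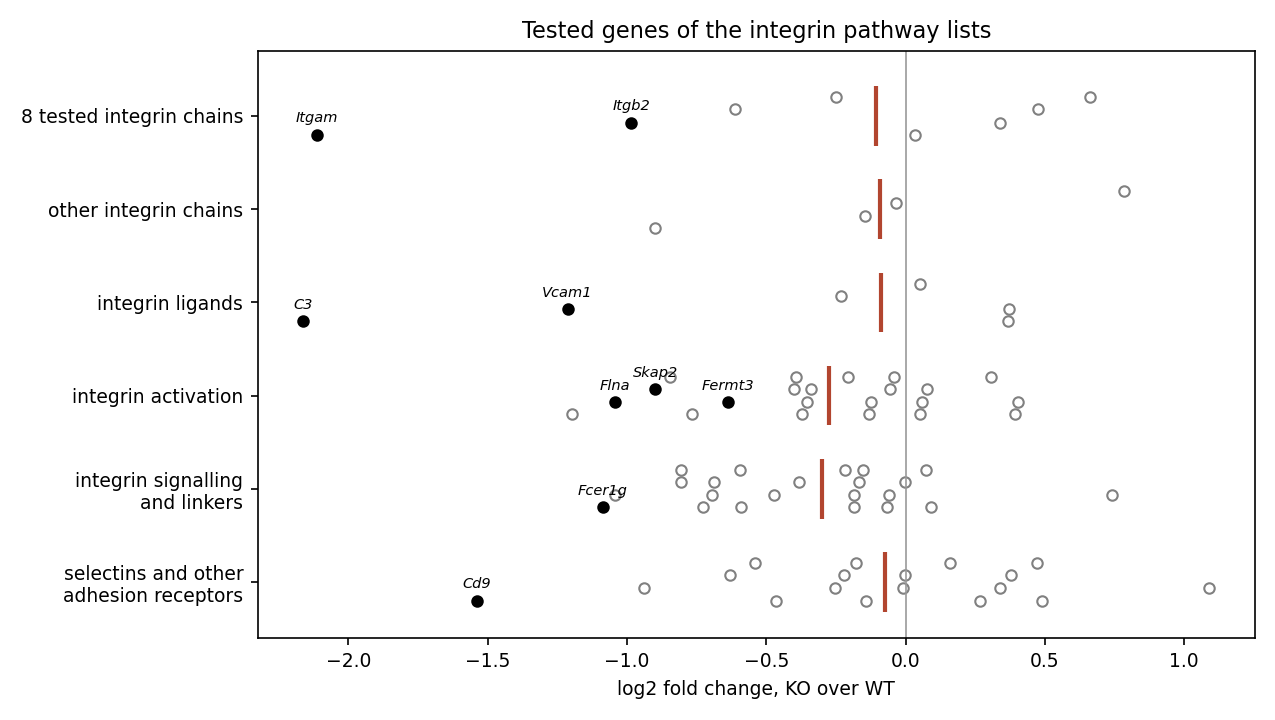
Log2 fold change of KO over WT for the tested genes of the integrin chains and of 5 related lists reported here. Filled and named points passed an adjusted p of 0.05 over all genes tested, and red bars are medians. All named points lie below 0, and list medians run from −0.30 to −0.08.

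The tested genes whose profiles over the 4 libraries were closest to that of Itgam, by Euclidean distance of centred log2 CPM, were Tmed1 (distance 0.106), Ncam1 (0.167) and Tbc1d2 (0.204). Each had few counts. Tmed1 had counts of 5 and 4 in KO, against 17 and 32 in WT. The closest to Itgb2 were Ripk3 (0.0915), Pih1d1 (0.116) and Rnf144a (0.116), of which none passed the threshold. With 4 libraries in 2 groups, such closeness says little beyond the same direction and size.

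The counts of 3 chains could include reads of overlapping genes. The exons of Itgam overlap those of Gm49368 on the same strand in GENCODE M21, and Gm49368 has no row of its own here. Those of Itga4 overlap Cerkl on the other strand, which had counts of 0 and 0 in KO, and of 1 and 1 in WT. Those of Itgav overlap the noncoding Gm13684 on the other strand. The strand setting of the counting is not given in the sources used here.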

How the data were processed

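RNA was measured in 4 libraries, 2 from CD300ld KO and 2 from WT mice. The table that the authors deposited holds whole-number counts of reads per gene, not normalized. Per the labels' protocols, TRIzol was used to extract RNA and an Illumina TruSeq kit to build libraries. Per the submitters' processing notes, the tools include Bowtie 0.12.2 and the builds mm8 and mm9, without a role for either. Which program, annotation and strand setting were used for counting is not given in the sources used here. Counts carry no molecular identifiers.

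The 21831 rows held 18751 names. Names on several rows (205) had equal values on each and were kept once. Column names give the genotype but not the sample, so library numbers are only names and pair nothing. The main model was edgeR 4.0.16 in R 4.3.3 (TMM, filterByExpr with a minimum count of 10 and total of 15, quasi-likelihood test of KO against WT), with Benjamini-Hochberg adjustment over the 7685 genes tested and a threshold of 0.05. The SE is the log2 fold change divided by the square root of F. The limit that a count of 0 allows, 3 counts, equals 3.26 to 4.45 CPM. The fit was tested on simulated data.

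The 9 members and all lists were chosen with earlier results of these data known. The signalling list leaves out 1 gene, which is not reported here. The text names the 9 members, up to 6 called genes of each of 5 related lists or the 2 most abundant of a list without calls, and the 3 genes closest in profile to Itgam and to Itgb2. Alternatives were RLE, no scaling, removal of haemoglobin and immunoglobulin genes, 2 other filters, DESeq2 1.42.0, limma-voom (limma 3.58.1), a threshold of 0.1, and fits without 1 library, in which the single library left in its genotype takes its spread from the other genotype. Promoters are from RefSeq (GRCm38.p6) and transcript lengths from GENCODE M21. The build of the counts is not settled, so neither was used for coordinates of counted reads.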

Additional observations from a re-analysis of the deposited data

How the results depend on the processing

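Itgam and Itgb2 were called lower in KO under all 11 alternatives fitted, with log2 fold changes from −2.31 to −1.94 and from −1.12 to −0.87, and the count of lower chains stayed at 2. The count of chains called higher was 0, and ran from 0 to 1 when a library was left out. The 1 call was Itga4 without WT library 1 (1.03, adjusted p = 0.00325), and its log2 fold change ran from 0.31 to 1.03 over the libraries left out. With DESeq2, 299 genes were called over all tested, against 459 in edgeR, of which 124 were higher in KO, against 208. The sign of Itgax turned with limma-voom, to −0.025, and its values ran from −0.55 to 0.43 when a library was left out. Over the same fits Itgb1 ran from −0.49 to 0.046 and Itgav from −3.24 to 0.24. The KO minus WT difference of the Itga4 to Itgb7 ratio ran from −0.204 to 0.456, that of Itga6 to Itgb1 from −0.0259 to 0.0676, and that of Itgav to Itgb1 from −0.112 to 0.0158. The KO minus WT difference of the Itgam share among the 3 α chains ran from −40.4 to −35.1 percentage points. The filter was run anew in fits without a library, and the cause of each shift was not tested. No paired analysis was possible because the columns carry no number that ties a KO library to a WT library. Depth limits the chains with few counts, Itgax, Itgav and Itga6, most.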
